A study of Mus musculus with 10 samples.

Results

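The guanylate-binding proteins (GBPs) and the very large inducible GTPase Gvin1 were followed in mouse ileum, the last stretch of the small intestine, as a gene family of 9 members chosen by name: Gbp2b, Gbp2, Gbp3, Gbp4, Gbp5, Gbp6, Gbp7, Gbp9 and Gvin1. Every probe of the bead array whose platform gene symbol was a member was taken, with the older symbol Gbp1 read as Gbp2b. This gave 15 probes of 25697 on the array, for 8 of the 9 genes. The platform table lists no probe for Gbp6, which was not analysed here. A probe counted as measured where its detection p, the fraction of the array's negative controls that were as bright or brighter, was under 0.05 on 5 or more of the 10 arrays. By this rule 5 of the 15 probes were measured, and they belong to 4 genes: Gbp2b, Gbp2, Gbp3 (2 probes) and Gvin1. All 5 were detected on at least 4 of 5 arrays in each genotype, so none passed through 1 genotype alone.

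The samples were 5 ileum samples of interferon-gamma knockout mice (IFNgKO, Ileum_IFNgKO_645 to Ileum_IFNgKO_649) and 5 of wild-type mice (WT, Ileum_WT_640 to Ileum_WT_644). All were male C57Bl/6 mice of 8 weeks on standard chow under specific-pathogen-free housing, with no treatment. The labels name no knockout allele. Array set was read from the description label of each sample, and what it stands for is not identified here. Each array set held both genotypes: set 1 held Ileum_IFNgKO_645, Ileum_IFNgKO_646, Ileum_WT_640 and Ileum_WT_641, and set 2 held the other 3 samples of each. No label states that the numbered samples are different animals, and the p-values cover only the spread among these 10 samples, which may be partly technical.

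GBPs are large GTPases of cell-autonomous immunity. They are known to assemble on the vacuoles of intracellular parasites and on the surface of bacteria in the cytosol, where they help to break the membrane open and to switch on inflammasomes. Their transcription is known to be strongly induced by IFNg, in part through the factor IRF1, and also by type I interferons, and the interferon-stimulated response element (ISRE) is a promoter motif of such genes. The comparison asks whether the resting level of these genes in unchallenged ileum differs without IFNg.

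The promoters of the cluster are shown because their shared interferon motif is an element through which these genes are known to be induced. RefSeq (GRCm38.p6) promoter windows, from 250 bases before to 50 after an annotated start, were at hand for 5 members, all on chromosome 3: Gbp2b, Gbp2, Gbp3 (2 windows), Gbp5 and Gbp7. Gbp4, Gbp6, Gbp9 and Gvin1 have no window in the table. Both strands were searched for the ISRE core, GAAA, any 2 bases and GAAA again (TTTC, any 2 bases and TTTC on the other strand), and for the gamma-activated site TTCNNNGAA, which is the same on both strands. The stretches below hold the ISRE core matches with 30 bases on either side, read on the plus strand, which is the strand of these genes, with the matches in capitals.
Gbp2b, chr3:142594680-142594749, plus strand: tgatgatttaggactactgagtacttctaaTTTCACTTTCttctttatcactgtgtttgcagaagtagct
Gbp2, chr3:142620574-142620643, plus strand: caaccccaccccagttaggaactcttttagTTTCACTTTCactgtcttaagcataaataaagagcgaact
Gbp3, chr3:142559969-142560044, plus strand: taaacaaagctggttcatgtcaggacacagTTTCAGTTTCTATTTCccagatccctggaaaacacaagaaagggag
Gbp5, chr3:142496739-142496808, plus strand: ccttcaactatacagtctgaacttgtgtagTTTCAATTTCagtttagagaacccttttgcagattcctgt
Gbp7, chr3:142530253-142530322, plus strand: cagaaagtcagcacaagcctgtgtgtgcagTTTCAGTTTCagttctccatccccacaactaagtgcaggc

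All 5 members with a window held at least 1 ISRE core match, which 3.44% of the 32841 windows of the same length hold. In Gbp3 2 matches overlap in 1 run, and its other window held none. The first matched base lay 137 bases before the start in Gbp2b, 59 in Gbp2, 45 and 39 in Gbp3, 165 in Gbp5 and 53 in Gbp7. The gamma-activated site, which 8.3% of windows hold, matched in Gbp5 and Gbp7, 2 times each, and overlapped no ISRE core. A match describes these letters only, and binding was not measured.

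**Figure D1:**
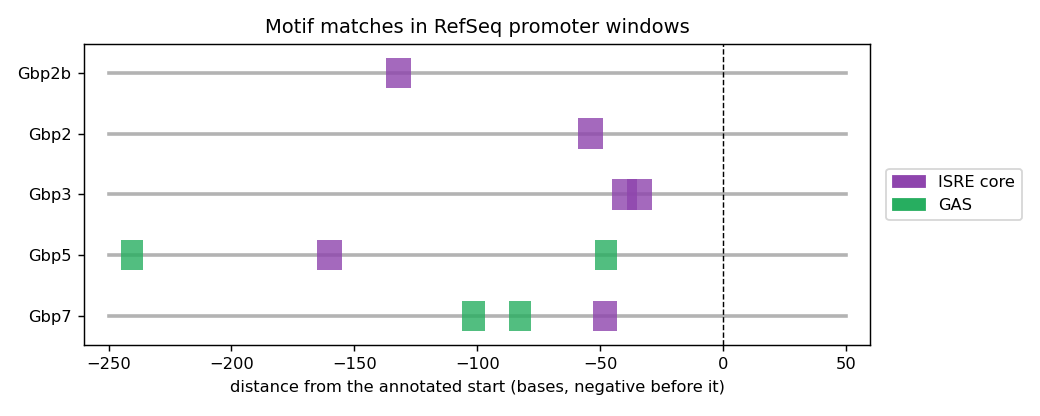
Position of the ISRE core (purple) and gamma-activated site (GAS, green) matches in the promoter windows of the 5 members that have one, as distance in bases from the annotated start (dashed line). Each row holds at least 1 ISRE core, and the GAS matches lie in the Gbp5 and Gbp7 rows.

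Signal was read first on the deposited intensities, which are linear and not normalised. On the 10 arrays 10618 to 12975 probes were detected, and the median raw intensity lay between 93 and 111.8. Ileum_WT_641 stood apart, with the lowest number of probes detected and the weakest average correlation to the other arrays, and Ileum_IFNgKO_649 had the most probes detected. The ileal bile acid binding protein gene Fabp6 was detected on all 10 arrays, as were Fgf15, the hormone gene of ileal enterocytes, and Vil1 of the brush border, while the probe of the bile acid transporter Slc10a2 was detected on none. Neither of the 2 Ifng probes was detected on any array (lowest detection p 0.144 in IFNgKO and 0.0977 in WT), so the arrays do not check the genotype labels.

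Of the 10 member probes that were not measured, 7 were detected on no array. These were the single Gbp4 probe, both Gbp9 probes, 2 of the 3 Gbp2 probes and 2 of the 3 Gvin1 probes. Their raw intensities lay between 66.9 and 95.5 in IFNgKO samples and between 66.5 and 103.9 in WT samples, and the lowest detection p among them was 0.119 in IFNgKO and 0.14 in WT. Gbp4 and Gbp9 belong to the cluster on chromosome 5, where Gbp6 also lies, so neither analysed member of that cluster was detected. For Gbp2 and Gvin1 the silent probes stood beside 1 probe that was detected on all 10 arrays, and the probes of each of these genes therefore disagreed. The detected Gvin1 probe is annotated to another transcript than the 2 silent ones, while the 3 Gbp2 probes are annotated to the same transcript. Cross-hybridisation between members was not checked, as no probe sequences were at hand.

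**Figure D2:**
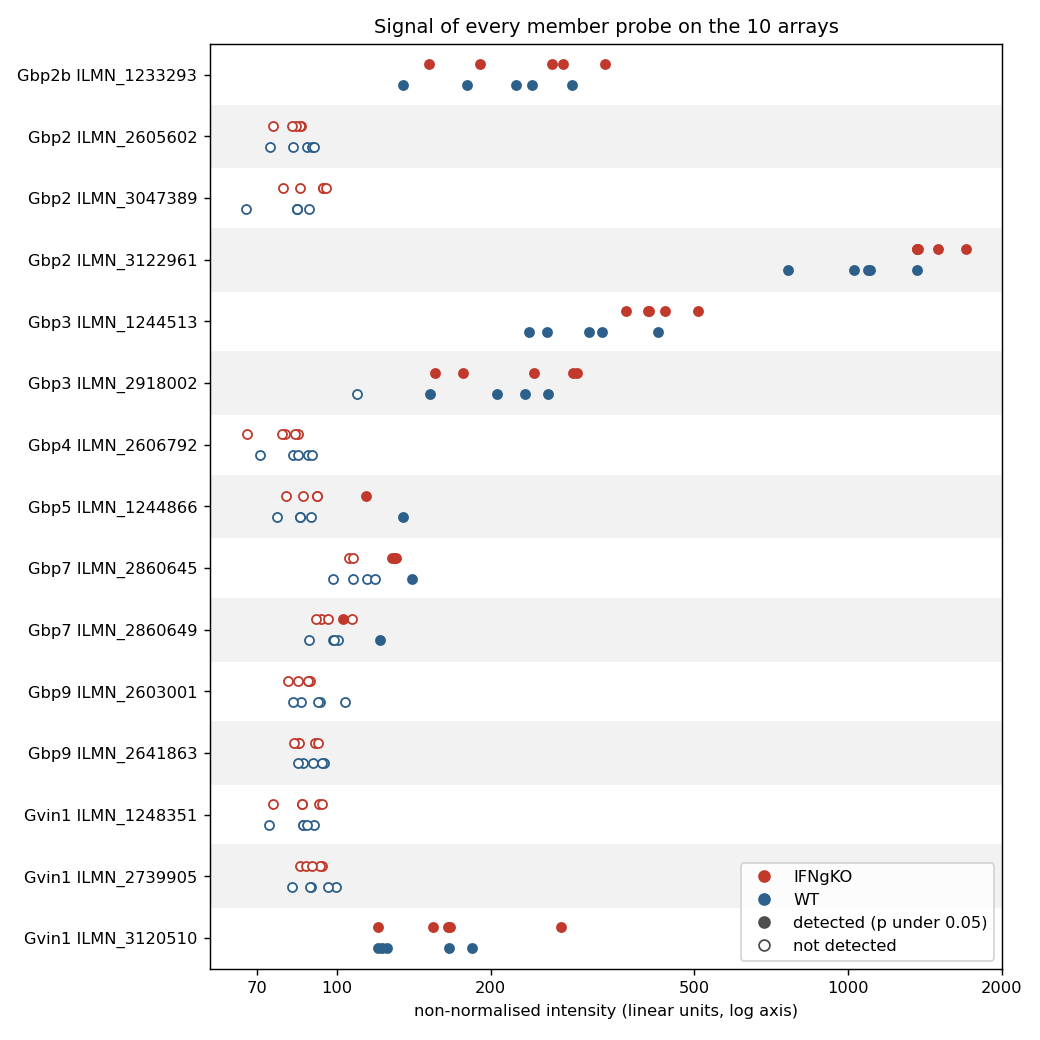
Non-normalised intensity of each of the 15 member probes (rows) on the 10 arrays, on a log axis, with IFNgKO samples in red above WT samples in blue and filled points where the probe was detected. The 7 probes with no filled point stay between 66.5 and 103.9, and every sample of the 5 measured probes lies to their right, from 109.8 upwards. The lowest values of Gvin1 and of Gbp3 probe ILMN_2918002 lie among those of Gbp5 and Gbp7, and the lowest Gbp2b value lies below the highest of Gbp7.

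Gbp5 and Gbp7, the members known in mouse for inflammasome activation and for recruiting antimicrobial oxidases, hovered at the detection limit. The Gbp5 probe had raw intensities of 79.7, 91.5, 86, 91.7 and 114 in Ileum_IFNgKO_645 to Ileum_IFNgKO_649, against 84.8, 89.2, 134.7, 84.9 and 76.5 in Ileum_WT_640 to Ileum_WT_644. It was detected in 1 sample of each genotype, Ileum_IFNgKO_649 and Ileum_WT_642. One Gbp7 probe (ILMN_2860645) had 105.7, 107.6, 128.4, 130.6 and 129.3 in Ileum_IFNgKO_645 to Ileum_IFNgKO_649, against 114.9, 119.1, 140.2, 107.8 and 98.2 in Ileum_WT_640 to Ileum_WT_644. It was detected in Ileum_IFNgKO_647, Ileum_IFNgKO_648, Ileum_IFNgKO_649 and Ileum_WT_642, all of them in array set 2. The other Gbp7 probe (ILMN_2860649) was detected in the same 2 samples as Gbp5, Ileum_IFNgKO_649 at 102.9 and Ileum_WT_642 at 121.5. For both genes the genotypes overlapped throughout. The 3 arrays with the most probes detected were Ileum_IFNgKO_649 (12975), Ileum_IFNgKO_647 (12651) and Ileum_WT_642 (12549), and the part of this in the Gbp5 and Gbp7 detections was not tested. Fitted without the detection filter, the 10 unmeasured probes differed by -0.13 to 0.17 on the log2 scale, with a lowest adjusted p of 0.431 (limma, Benjamini-Hochberg adjustment over all 25697 probes).

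The measured probes were compared between the genotypes on background-corrected, quantile-normalised log2 intensities, with array set fitted (limma, Benjamini-Hochberg adjustment over 12039 tested probes). No member probe passed 5%, 0 of 5, where 0.0166% of all tested probes did, and 0 of 5 had an unadjusted p under 0.05, where 12.2% of all did. All 5 differences were above 0, that is higher in IFNgKO, by 0.03 to 0.30, where 51% of all tested probes had a difference above 0. In no member probe were the genotypes free of overlap, which held for 1.34% of all tested probes. In a bulk tissue, fewer cells of a type and less RNA per cell cannot be told apart.

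Gbp2, which is known to coat parasite vacuoles and to be prenylated at its end, was read by probe ILMN_3122961. Its log2 level was 10.52, 10.42, 10.30, 10.07 and 10.31 in Ileum_IFNgKO_645 to Ileum_IFNgKO_649, against 10.15, 10.36, 9.75, 10.33 and 9.91 in Ileum_WT_640 to Ileum_WT_644. Of the IFNgKO samples 2 lay above the highest WT sample and none below the lowest. The means were 10.32 ± 0.17 in IFNgKO and 10.10 ± 0.27 in WT (SD, n = 5 each), a difference of 0.22 ± 0.14 (SE, limma adjusted p = 0.534). Its 95% interval ran from -0.07 to 0.52.

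Gbp3, a close relative of Gbp2 in the same cluster, had the lowest p of the measured probes. Probe ILMN_1244513 had 8.31, 8.49, 8.38, 8.15 and 8.40 in Ileum_IFNgKO_645 to Ileum_IFNgKO_649, against 8.08, 7.90, 7.75, 8.44 and 8.05 in Ileum_WT_640 to Ileum_WT_644. Ileum_WT_643 lay within the IFNgKO range, and all other WT samples lay below it. The means were 8.34 ± 0.13 in IFNgKO and 8.04 ± 0.25 in WT (SD, n = 5 each), a difference of 0.30 ± 0.15 (SE, limma unadjusted p = 0.0599, adjusted p = 0.422). The 95% interval of -0.01 to 0.62 corresponds to 0.99 to 1.53 times the WT level.

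The other Gbp3 probe, ILMN_2918002, gave a difference of the same size with a wider error. It had 6.51, 6.83, 7.39, 7.17 and 7.66 in Ileum_IFNgKO_645 to Ileum_IFNgKO_649, against 7.25, 5.42, 7.09, 7.49 and 6.92 in Ileum_WT_640 to Ileum_WT_644. Ileum_WT_641 stood below all the rest and was the sample in which this probe was not detected. The means were 7.11 ± 0.45 in IFNgKO and 6.83 ± 0.82 in WT (SD, n = 5 each), a difference of 0.28 ± 0.27 (SE, limma adjusted p = 0.702). Leaving out that sample, which stood apart on the array as a whole, gave a difference of -0.013.

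Gbp2b, the mouse gene formerly called Gbp1, overlapped widely between the genotypes. Its probe had 6.44, 7.02, 7.64, 7.43 and 7.43 in Ileum_IFNgKO_645 to Ileum_IFNgKO_649, against 6.93, 6.28, 7.50, 7.33 and 7.78 in Ileum_WT_640 to Ileum_WT_644. The lowest and the highest sample were both WT. The means were 7.19 ± 0.48 in IFNgKO and 7.16 ± 0.58 in WT (SD, n = 5 each), a difference of 0.03 ± 0.17 (SE, limma adjusted p = 0.964, 95% interval -0.33 to 0.39).

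Gvin1, a giant GTPase on chromosome 7 known in mouse to be induced by both interferon types, was read by probe ILMN_3120510. Its level was 5.65, 6.48, 6.27, 6.35 and 7.51 in Ileum_IFNgKO_645 to Ileum_IFNgKO_649, against 5.61, 5.89, 6.58, 6.46 and 6.31 in Ileum_WT_640 to Ileum_WT_644. Ileum_IFNgKO_649 was the highest sample of all, and the other 4 IFNgKO samples lay within the WT range. The means were 6.45 ± 0.67 in IFNgKO and 6.17 ± 0.41 in WT (SD, n = 5 each), a difference of 0.28 ± 0.23 (SE, limma adjusted p = 0.645, 95% interval -0.22 to 0.78). Without Ileum_IFNgKO_649 the difference was 0.065.

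**Figure D3:**
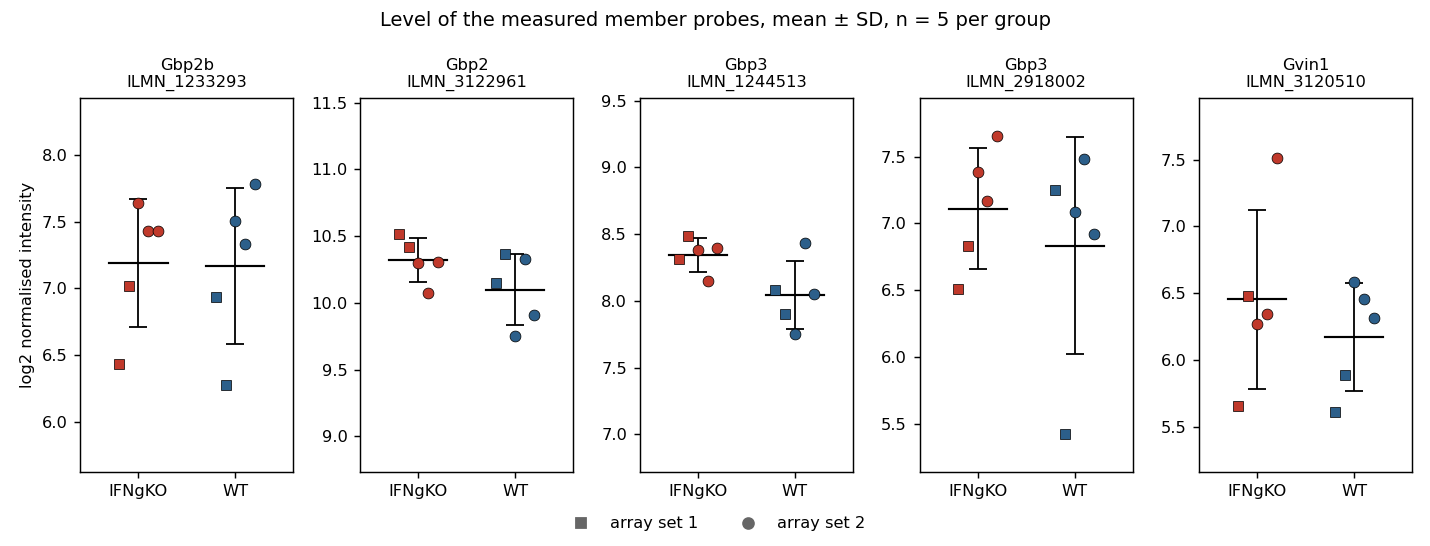
Log2 normalised intensity of the 5 measured member probes in each sample, IFNgKO (red) left of WT (blue), with squares for array set 1, circles for array set 2, and a bar and whiskers for the mean ± SD of 5 samples. The groups overlap in every panel, and the Gbp2b squares lie below the Gbp2b circles in both genotypes.

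The genotype difference was examined within each array set. For Gbp2 it was 0.21 in set 1 and 0.23 in set 2, for Gbp3 0.41 and 0.23 (ILMN_1244513) and 0.33 and 0.24 (ILMN_2918002), and for Gvin1 0.32 and 0.26. Only Gbp2b changed sign, with 0.12 in set 1 and -0.04 in set 2. The interaction of genotype and array set passed 5% for 0 of 5 probes (limma, adjusted p = 0.999 for each), as it did for 0% of all tested probes, and 0 of 5 had an unadjusted p under 0.05, where 3.17% of all did.

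**Figure D4:**
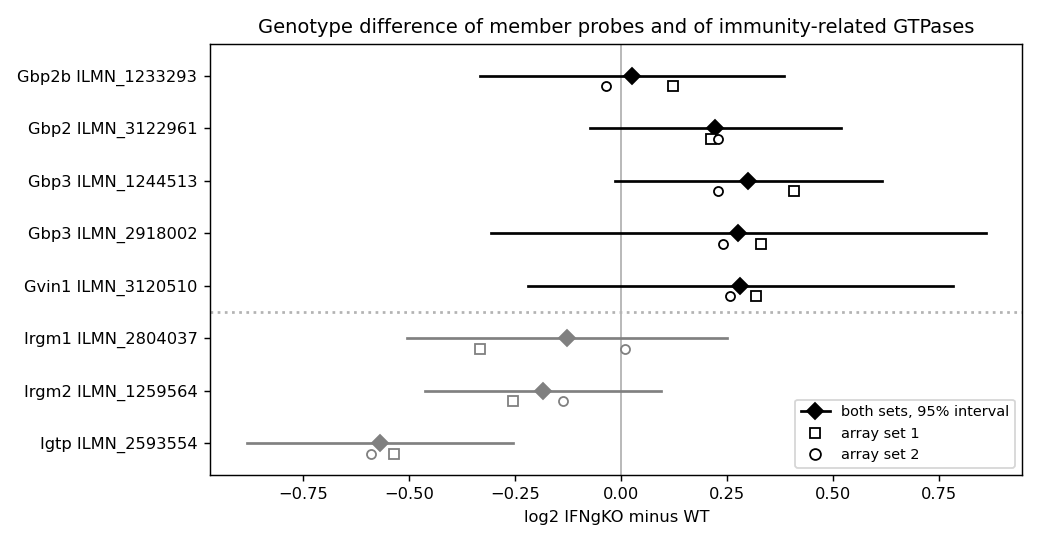
Log2 difference, IFNgKO minus WT, of the 5 measured member probes (black) and of 3 immunity-related GTPases (grey), with diamonds and 95% intervals from the fit of both array sets, open squares for array set 1 alone and open circles for set 2 alone. The member intervals all include 0, with estimates of 0.03 to 0.30, as do those of Irgm1 and Irgm2. The Igtp estimate lies at -0.57 with its interval below 0. These intervals are not adjusted for the number of probes tested.

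The 2 array sets were also compared with genotype fitted, a comparison chosen after the values were seen. Gbp2b was higher in set 2 than in set 1 by 0.86 ± 0.17 (SE, limma adjusted p = 0.00288), and in each genotype all set 2 samples lay above all set 1 samples. Of all tested probes 19.2% passed 5% between the sets, and 13% were higher in set 2. The other 4 probes did not pass 5%, with 0.78 ± 0.28 for Gbp3 probe ILMN_2918002 (adjusted p = 0.064), 0.67 ± 0.24 for Gvin1 (0.0638), -0.25 ± 0.14 for Gbp2 (0.219) and -0.002 ± 0.149 for Gbp3 probe ILMN_1244513 (0.995). The Gbp2b difference passed 5% with each sample left out in turn, at 0.71 to 0.99. It also passed at the smaller sizes of 0.52 without background correction and 0.55 in the authors' value table.

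Variation between samples of the same genotype and array set was compared over the 6 pairs of measured genes, with values centred within each genotype and set and an exact permutation test within these cells (all arrangements, two-sided, n = 10). None of the 6 pairs passed 5%. The smallest unadjusted p that this exact permutation test can give is 0.0069. After adjustment over the 6 pairs, a pair on its own could pass only at its most extreme arrangement. Gbp2 and Gbp3 (ILMN_1244513), both in the chromosome 3 cluster, had the highest correlation, with Pearson's r = 0.77 (exact permutation p = 0.132, adjusted over the 6 pairs 0.667) and Spearman's rho = 0.56 (p = 0.25, adjusted 0.7). In array set 2 alone (n = 6) r was 0.98, and set 1, with 4 samples, is too small for a value. Without the 2 samples farthest from the median of Gbp2, Ileum_WT_642 and Ileum_WT_643, r was 0.16. Both of these are in set 2, and all 4 samples of set 1 stayed in. The centring over all 10 samples was kept for such values. In all 6 samples of set 2 both genes deviated in the same direction, and in all 4 of set 1 they deviated in opposite directions. Set 1 holds 2 samples per genotype, so centring makes their deviations mirror each other, and the second of each pair adds no information. Gbp2b and Gbp2 had r = -0.47 (exact permutation p = 0.222, adjusted 0.667; rho = -0.50, p = 0.271, adjusted 0.7; r = -0.42 without the 2 farthest samples). The other 4 pairs had r between 0.02 and 0.17 (exact permutation p of 0.549 to 0.951, adjusted p of 0.9 to 0.951), rho between -0.006 and 0.27 (p of 0.514 to 1, adjusted p of 0.7 to 1), and r between -0.14 and 0.48 without the 2 farthest samples. For the pairs with Gbp2b the 2 farthest samples were Ileum_WT_640 and Ileum_IFNgKO_646. Their mirrored partners stayed in, so their influence was only partly removed. Single samples moved the correlations, and r of Gbp2b and Gbp3 was 0.73 without Ileum_WT_643. For Gbp2b and Gvin1 r was -0.37 without Ileum_IFNgKO_645 or without Ileum_IFNgKO_646. These 2 are the same result, because the sample left behind then has no deviation from its own mean.

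**Figure D5:**
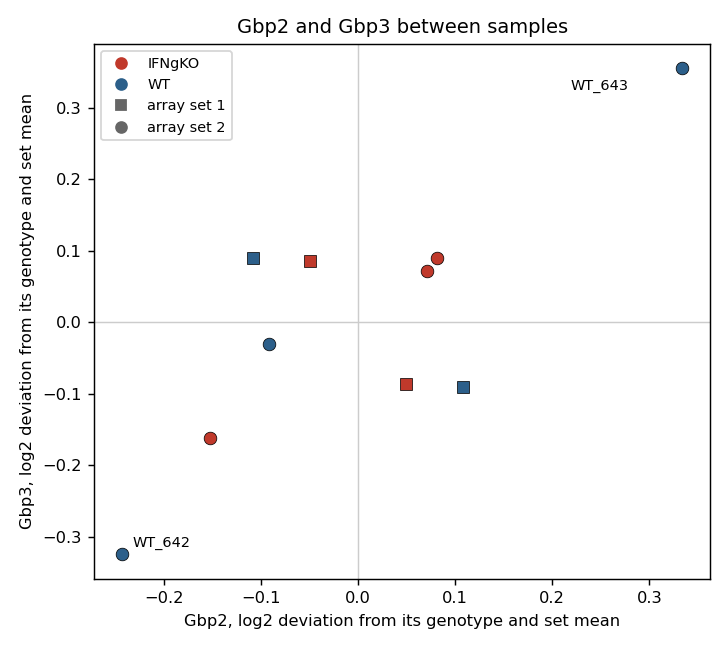
Deviation of Gbp2 (horizontal) and Gbp3 (vertical) from the mean of their genotype and array set, in log2 units, 1 point per sample, IFNgKO in red and WT in blue, squares for array set 1 and circles for set 2. The 6 circles run from Ileum_WT_642 at the lower left to Ileum_WT_643 at the upper right. The 4 squares, mirrored in pairs by the centring, run the other way. Over all 10 samples r is 0.77, and it is 0.16 without Ileum_WT_642 and Ileum_WT_643, with the centring of all 10 and the 4 squares kept.

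Over the same centred values of the 10 samples, the genes most like each member were ranked among 8685 others by Pearson's r, as a description with no test. They were Rnft1 (0.97) and Rps6ka3 (0.96) for Gbp2b, Slc6a17 (0.98) and Orc5 (0.97) for Gbp2, Commd10 (0.98) and Vim (0.96) for Gbp3, and Ramp2 (0.95) and Rab3gap1 (0.94) for Gvin1. No measured member was among the first 2 of another, and 9 to 23 genes had r over 0.9 with each member. Centring leaves fewer independent values than samples, so high r can arise by chance among 8685 genes. The count to be had by chance was not computed, and the named genes are not shown to be partners.

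Other genes of the GBP pathway were read from lists drawn up by role, 1 probe a gene. The immunity-related GTPases, smaller relatives of which some load onto vacuoles with the GBPs, had 3 of 8 listed genes measured. Iigp1, Tgtp1 and Irgc1 were not measured, and Tgtp2 and Gm12250 have no probe. All 3 measured genes were below 0 with a median of -0.18, against 0.004 over all tested probes. In array set 1 alone 3 of the 3 were below 0, and in set 2 alone 2 of the 3 were. Igtp (Irgm3) had 7.63 ± 0.20 in IFNgKO and 8.20 ± 0.26 in WT (SD, n = 5 each), a difference of -0.57 ± 0.15 (SE, limma unadjusted p = 0.00177, adjusted p = 0.239). Its 95% interval ran from -0.88 to -0.25, and it differed by -0.53 in set 1 and -0.59 in set 2. Of all tested probes 12.2% had an unadjusted p under 0.05. Irgm2 differed by -0.18 ± 0.13 (adjusted p = 0.582), and its interval and that of Irgm1 included 0. Irgm1 differed by -0.13 ± 0.17 (0.794), with its other tested probe at 0.18. None of the 3 passed 5%. Scaled to a common median, the list's median was 0.02 with 1 of 3 below 0, where the median of all tested probes was 0.19 and the 5 member probes stood at 0.22 to 0.53.

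The inducing pathway, from the IFNg and type I interferon receptors to the IRF factors, had 11 of 16 genes measured, 5 above and 6 below 0, and 0 past 5% (median -0.03). Ifngr2, a chain of the IFNg receptor, had 10.79 ± 0.20 in IFNgKO and 11.17 ± 0.21 in WT (SD, n = 5 each; difference -0.38 ± 0.15, SE, limma adjusted p = 0.349). Its ligand-binding partner chain Ifngr1 differed by -0.29 ± 0.16 (0.469), and Irf2, a factor that competes with IRF1 for the ISRE, by 0.36 ± 0.19 (0.454).

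Partners of the GBPs in inflammasome signalling had 6 of 10 genes measured, 4 above and 2 below 0, and 0 past 5% (median 0.09). Gsdmd, the pore-forming executor of pyroptosis, had 11.19 ± 0.21 in IFNgKO and 11.61 ± 0.27 in WT (SD, n = 5 each; difference -0.42 ± 0.13, SE, limma adjusted p = 0.286), and its other 2 tested probes were at -0.20 and -0.40. Il18, a cytokine that inflammasomes process, differed by 0.54 ± 0.22 (0.368). Casp4, mouse caspase-11, which GBPs help to bind bacterial lipopolysaccharide, differed by 0.38 ± 0.22 (0.507), with its other tested probes at -0.50 and 0.001.

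The ubiquitin-like conjugation genes known in mouse to guide these GTPases to vacuoles had 9 of 10 measured, 4 above and 5 below 0, and 0 past 5% (median -0.03). Gabarapl1 differed by -0.42 ± 0.16 (SE, limma adjusted p = 0.349) and its relative Gabarap by 0.34 ± 0.16 (0.41), while Atg16l1, of the conjugating complex, differed by -0.23 ± 0.12 (0.474).

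Cell types that could carry GBP transcripts were followed by their markers. Of 10 listed T cell and intraepithelial lymphocyte markers 5 were measured, but Cd8b1, at 1.14, was detected on 4 IFNgKO arrays and 1 WT array and so passed the filter through the genotype in which it was high. The other 4 were above 0 (0.33 to 0.60), with a summed linear level of 343 to 618 in IFNgKO and 311 to 379 in WT samples (383 to 744 and 342 to 417 with Cd8b1). Cd4, Cd8a, Gzma and Gzmb were detected on no array. All 6 measured macrophage and dendritic cell markers of 10 were above 0, 4 of them in array set 1 alone and 6 in set 2 alone (0.10 to 0.51; summed level 2491 to 3793 in IFNgKO and 1796 to 3108 in WT), with Itgax detected on no array and Adgre1 on 1. Both measured B and plasma cell markers of 6 were above 0, at 0.44 and 0.49 (249 to 821 in IFNgKO and 239 to 419 in WT). Of 7 measured endothelial markers 6 were below 0 (2862 to 3648 in IFNgKO and 3030 to 4295 in WT), as were 6 of 7, not all the same ones, in each array set alone. All 5 smooth muscle markers were above 0 (54319 to 58381 in IFNgKO and 39517 to 57762 in WT), but 4 of the 5 were below 0 in array set 1 alone and 5 above in set 2 alone. Of 7 measured ileal epithelial markers 2 were above and 5 below 0, and of 2 measured pancreatic markers 1 was above and 1 below. None of these markers passed 5% (limma), and their part in the GBP values was not tested.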

How the data were processed

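Ileum RNA of 10 samples was hybridised to Illumina mouse bead arrays, 1 array a sample. The deposited table pairs each probe's linear intensity, named non-normalised by the authors, with a detection p-value, per the file headers. A second table by the authors holds intensities that are quantile normalised, as read from their equal quantiles. The submitters' processing notes name lumi.

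Intensities were background corrected and quantile normalised with neqc (offset 16, with the negative control mean and spread estimated from the detection p-values) in limma 3.58.1 under R 4.3.3. Probes with detection p under 0.05 on 5 or more arrays, 12039 of 25697, were fitted with lmFit and eBayes, with array set as a term, and adjusted by Benjamini-Hochberg over all of them. Intervals are 95% intervals of the fit. A gene outside the family is represented by its tested probe with the highest mean. Of 23978 named probes 23962 matched the RefSeq table (GRCm38.p6) by gene ID. The number of arrays limits the precision.

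The members, lists and rules were chosen with earlier results of these data known. The rule for named genes takes every member probe, the 3 genes of each pathway list with the lowest p, and the 2 genes most like each measured member. Markers were taken from lists fixed with it, and those given by name beyond it were chosen after their values were seen. Alternatives changed the background, scaling, offset, values, filter, array set term, variance model and array weights, and left out each sample in turn, with normalisation over all arrays kept. The fits were tested on simulated data.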

Additional observations from a re-analysis of the deposited data

Results flagged for a closer look

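Within groups of 5 samples, each member probe was checked for a sample whose gap to its nearest neighbour exceeded Dixon's 95% critical value of 0.71 of the group's range. This held in 4 of 30 groups, and chance flags about 5% of groups. The second Gbp3 probe (ILMN_2918002) was low in Ileum_WT_641, at a log2 level of 5.425 where the next WT sample had 6.92, and that array detected the fewest probes. Gbp5 was high in Ileum_IFNgKO_649, at 5.603 against 4.845 in the next IFNgKO sample, and in Ileum_WT_642, at 5.837 against 4.751 in the next WT sample. The second Gbp7 probe (ILMN_2860649) was high in Ileum_WT_642 too, at 5.543 against 5.081. Gbp5 and this Gbp7 probe were detected in no other sample than Ileum_IFNgKO_649 and Ileum_WT_642.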

How the results depend on the processing

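No member probe passed 5% under any of the alternatives run, in 114 fits of single probes, and 107 of these differences were above 0. Changes of filter, array set term and variance model left every difference as in the comparison as reported. The other fits reuse the same samples, so the 114 are not independent checks of direction. In the comparison as reported 51% of all tested probes were above 0. The differences of Gbp2 (0.16 to 0.43), of the first Gbp3 probe, ILMN_1244513, (0.22 to 0.53) and of Gvin1 (0.065 to 0.41) were above 0 in all alternatives, with adjusted p-values of 0.199 to 0.919. The upper ends of Gbp2 and of that Gbp3 probe came under median scaling, where the median of all tested probes was itself 0.19. The Gbp2b difference turned to -0.036 in array set 2 alone and to -0.027 with array weights, and ran from -0.089 to 0.11 without each sample in turn. The second Gbp3 probe, ILMN_2918002, ran from -0.013 (without Ileum_WT_641) to 0.55 without each sample. The interaction turned to 0.045 for the second Gbp3 probe and 0.016 for Gvin1 without background correction, and to 0.033 and 0.011 in the authors' value table. Without each sample it ran from -0.49 to 0.17 for Gbp2b, from -0.11 to 0.18 for Gbp2, from -1.005 to 0.82 for the second Gbp3 probe and from -0.48 to 0.35 for Gvin1. The array set difference of the first Gbp3 probe turned to 0.23 under median scaling and ran from -0.091 to 0.064 without each sample. Over all probes, 2 passed 5% in the comparison as reported, 10 with a common median, 5 with an offset of 50 and in the authors' table, 4 with a trended robust variance, 1 without the array set term or when detected on all 10 arrays, 0 in array set 1 or 2 alone, and 1 to 3 without each sample. The companion genes, the interaction and the covariation gave 0 calls under every alternative run. With a sample left out, the permutation test of the covariation has too few arrangements for a pair on its own to pass 5%. The 0 calls of those covariation runs are therefore no check of stability. Under median scaling the second Gbp3 probe and Gvin1 also passed 5% for array set (adjusted p = 0.0171 and 0.0233), as did that Gbp3 probe without Ileum_WT_640 (0.00381) and Gvin1 without Ileum_IFNgKO_646 (0.0454) or Ileum_IFNgKO_647 (0.0438). The cause of these changes was not tested. Probes near the detection limit bound what can be seen of Gbp4, Gbp5, Gbp7 and Gbp9. No paired analysis was possible because the groups share no replicate numbers.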
